A study of Mus musculus with 8 samples.

Results

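The fatty acid desaturases and elongases are the enzymes that remodel fatty acids after their synthesis or uptake, and their mRNAs were measured in the livers of mice fed alcohol or a control diet. The 10 genes described here are *Scd1*, *Scd2*, *Fads1*, *Fads2*, *Fads3*, *Elovl1*, *Elovl2*, *Elovl3*, *Elovl5* and *Elovl6*, taken as the probe-sets that the array annotation names with that symbol alone. Each gene had 1 probe-set, which gives 10 of the 23332 probe-sets on the array. All 10 were among the 10430 probe-sets kept by a filter on low values that ignored the diets, and each of the 10 lay above the filter level (log2 5.56) on all 8 arrays.

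Desaturases put a double bond into an acyl chain and elongases lengthen the chain by adding carbon from malonyl-CoA, both in the endoplasmic reticulum. In liver the saturated chains made by fatty acid synthase are lengthened by ELOVL6 and made monounsaturated by stearoyl-CoA desaturase, which prepares them for storage in triglycerides. The essential fatty acids of the diet are instead desaturated by FADS2 and FADS1 and lengthened by ELOVL5 and ELOVL2, which yields arachidonic and docosahexaenoic acid for membranes and signaling lipids.

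All 8 mice were male wild type C57Bl6J mice, 6 weeks old at the start, that received a liquid diet for 6 weeks. In the alcohol group (4 mice) the diet held 2.06% alcohol for 3 days, 4.18% for 4 days and a final level, 6.2% per the labels, for 5 weeks, at which alcohol made up 35% of the calories. The control group (4 mice) was pair-fed a diet in which maltose and dextrin took the place of alcohol. Liver RNA of each mouse was hybridized to 1 Affymetrix Mouse Exon 1.0 ST array, and the values are log2 RMA values, a measure of signal that allows a gene to be compared between arrays but not with another gene. Whole liver was used, so that fewer cells of a type and less RNA per cell cannot be told apart. Values are given in the order of alcohol mice WA-811, WA-817, WA-833 and WA-836 and control mice WC-820, WC-824, WC-834 and WC-840.

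The median value of an array was 5.10 to 5.14 on alcohol and 5.04 to 5.08 on control. Of 8 hepatocyte markers listed, 4 had a probe-set of their own, and their mean was 13.11 to 13.22 on alcohol and 13.16 to 13.21 on control, with 0 of the 4 called. Over all probe-sets tested 10.2% were called higher and 5.98% lower, so that 0 of 4 says little. The highest value of an array was 13.66 to 13.75 on alcohol and 13.60 to 13.66 on control. These markers lay near it, and the part of a ceiling of the signal was not tested. Markers of other liver cells moved in part, and they are given beside the genes they accompany.

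RefSeq sequence upstream of the start (build GRCm38.p6) was given for 6 of the 10 genes, in 8 windows, and 4 windows are shown. *Elovl5* and *Fads2* are shown as partners in the polyunsaturated pathway that fell together, *Fads3* as the neighbor of *Fads2*, and *Elovl6* as a gene that did not pass the test. The windows are the 250 bases before the start of *Elovl5* (chr9:77917115-77917364, plus strand), *Fads2* (chr19:10101504-10101753, minus strand), *Fads3* (chr19:10041298-10041547, plus strand) and *Elovl6* (chr3:129532136-129532385, plus strand), each written along its gene. Capitals mark the E-box, which reads CACGTG, and the box bound by NF-Y, which reads CCAAT on the strand shown or ATTGG where it lies on the opposite strand.
Elovl5: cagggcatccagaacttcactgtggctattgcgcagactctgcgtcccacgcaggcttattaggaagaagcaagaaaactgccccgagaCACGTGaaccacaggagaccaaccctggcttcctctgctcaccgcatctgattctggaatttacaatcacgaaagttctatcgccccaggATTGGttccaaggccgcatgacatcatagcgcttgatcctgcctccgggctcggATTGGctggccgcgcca
Fads2: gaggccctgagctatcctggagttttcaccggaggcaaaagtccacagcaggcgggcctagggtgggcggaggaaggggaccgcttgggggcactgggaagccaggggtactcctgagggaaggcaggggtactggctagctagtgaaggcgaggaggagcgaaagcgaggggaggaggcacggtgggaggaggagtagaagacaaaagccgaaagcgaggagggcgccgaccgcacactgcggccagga
Fads3: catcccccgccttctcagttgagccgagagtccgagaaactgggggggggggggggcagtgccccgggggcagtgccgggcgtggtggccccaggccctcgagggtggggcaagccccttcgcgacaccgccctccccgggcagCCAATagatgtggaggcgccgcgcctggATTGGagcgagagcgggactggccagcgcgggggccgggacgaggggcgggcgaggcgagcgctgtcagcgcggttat
Elovl6: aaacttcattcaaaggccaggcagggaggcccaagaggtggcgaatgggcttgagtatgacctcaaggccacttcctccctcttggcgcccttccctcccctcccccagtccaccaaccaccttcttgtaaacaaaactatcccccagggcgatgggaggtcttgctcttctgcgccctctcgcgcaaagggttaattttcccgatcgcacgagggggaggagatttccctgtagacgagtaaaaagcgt

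Both strands were searched for 4 motifs, which were these boxes, the SREBP motif written TCACNCCAC, and the direct repeat bound by LXR. The NF-Y box and the E-box do not overlap in these windows. The *Elovl5* window held the E-box at bases -161 to -156 from the start and the NF-Y box on the minus strand at -71 to -67 and -17 to -13. In the *Fads3* window the NF-Y box lay at -106 to -102 on the plus strand and at -78 to -74 on the minus strand. Neither the *Fads2* nor the *Elovl6* window held a match. Among the windows not shown, an *Elovl1* window held the NF-Y box at -35 to -31 on the plus strand, and *Elovl1* did not pass the test. The other *Elovl1* window and those of *Elovl2* held no match. Among 32851 upstream windows of the same length, 33.9% held the NF-Y box, 6.02% the E-box, 1.05% the SREBP motif and 0.0152% the LXR repeat. The share of G and C was 55.6% in *Elovl5*, 64.8% in *Fads2*, 74.4% in *Fads3* and 56.4% in *Elovl6*, against a median of 52.4% over all windows.

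To learn whether alcohol feeding alters the mRNAs of enzymes that remodel fatty acids, each of the 10 genes was compared between the diets. Fatty acids and enzyme activity were not part of these data. On alcohol 6 genes fell, *Scd1*, *Fads1*, *Fads2*, *Fads3*, *Elovl3* and *Elovl5*, and 1 rose, *Scd2*. *Elovl1*, *Elovl2* and *Elovl6* did not pass the test. Of the 5 desaturases 4 fell, and of the 5 elongases 2 fell.

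These calls are from limma at a Benjamini-Hochberg adjusted p under 0.05, taken over all 10430 probe-sets. Of those probe-sets 5.98% were called lower and 10.2% higher, beside 6 of 10 and 1 of 10 in this family, and no test was made of that contrast. Higher probe-sets were 62.9% of all calls, a share that became 51.8% with quantile-normalized arrays and 45.1% when array medians were set equal. The median difference, alcohol minus control, was -0.49 (log2) over the 10 genes and 0.05 over all probe-sets tested.

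The 4 alcohol values lay wholly below the 4 control values in 6 of the 10 genes and wholly above them in 1, which are the same 7 genes. Over all probe-sets tested these shares were 8.14% and 15.5%. For a single gene, 4 mice against 4 allow an exact two-sided permutation p of 0.0286 at the least, and each of the 7 reached it. At the thresholds of the study's methods, P of 0.0001 before adjustment and a change of 1.5-fold or more, *Fads1* and *Elovl5* were lower and *Scd2* higher, where 0.757% of the probe-sets tested were lower and 1.01% higher.

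**Figure D1:**
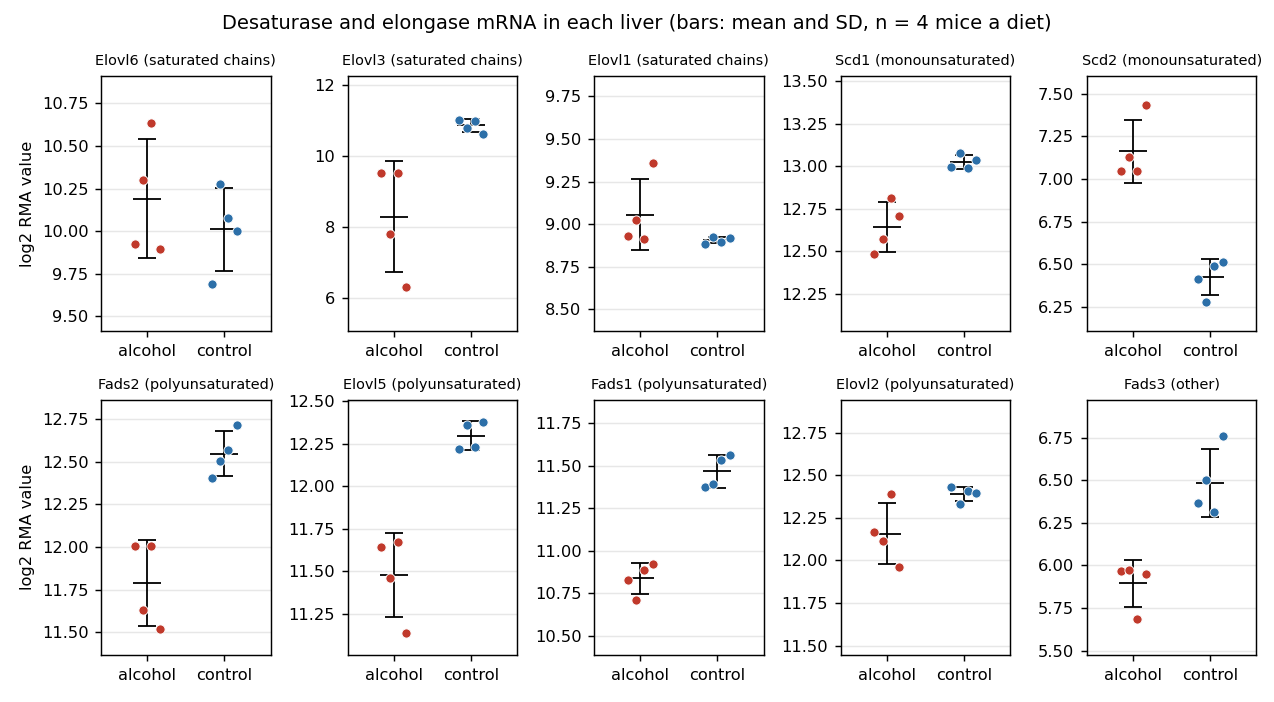
Log2 RMA value of each of the 10 genes (vertical axis, with a range of its own for each gene and a wider one for Elovl3) in 4 alcohol livers (red, left) and 4 control livers (blue, right), with bars at the mean and SD. The points of the diets are apart in 7 genes, and in Elovl3 the alcohol livers spread between 6.30 and 9.54 while the control livers lie between 10.64 and 11.04.

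**Figure D2:**
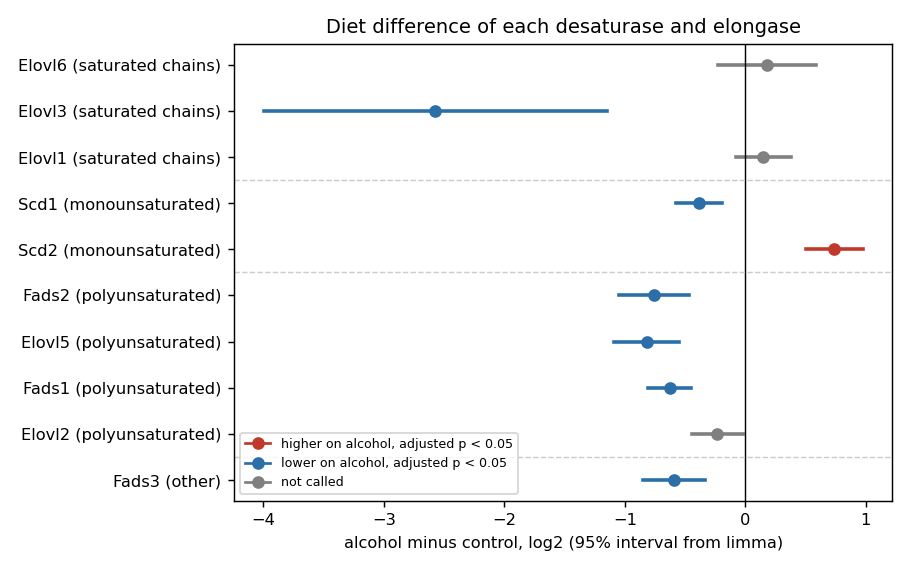
Difference of each gene, alcohol minus control on the log2 scale (horizontal axis), with the 95% interval from limma, ordered by metabolic step. Intervals lie below 0 in the 6 genes called lower (blue) and above 0 in Scd2 (red), while of the 3 genes not called (grey) the interval of Elovl2 ends just below 0, at -0.02.

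In the polyunsaturated steps the mRNAs of 3 of 4 enzymes were lower on alcohol. *Fads2*, which encodes the desaturase that opens the pathway from linoleic and alpha-linolenic acid, fell 1.69-fold, *Elovl5*, which lengthens its product, fell 1.77-fold, and *Fads1*, the desaturase that follows, fell 1.55-fold. *Elovl2*, the elongase nearest to docosahexaenoic acid, had a smaller difference that did not pass the test.

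*Fads2* read 12.00, 11.63, 12.01 and 11.52 on alcohol and 12.40, 12.51, 12.57 and 12.72 on control. Alcohol mice WA-817 and WA-836 were the lowest, and even the highest alcohol mouse lay below the lowest control mouse. Its mean was 11.79 ± 0.25 on alcohol and 12.55 ± 0.13 on control (SD, n = 4 each), a difference of -0.76 ± 0.13 (SE) with an adjusted p of 0.00649 in limma.

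*Elovl5* had the same order of alcohol mice, with 11.64, 11.46, 11.67 and 11.14 on alcohol and 12.22, 12.36, 12.23 and 12.38 on control. The groups were separate by 0.55, and alcohol mouse WA-836 was again the lowest. The mean of 11.48 ± 0.25 on alcohol and 12.30 ± 0.08 on control (SD, n = 4 each) gave a difference of -0.82 ± 0.12 (SE, limma adjusted p = 0.00369).

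*Fads1* read 10.83, 10.71, 10.89 and 10.92 on alcohol and 11.37, 11.39, 11.53 and 11.56 on control. The alcohol values were close to each other, and mouse WA-836, the lowest in *Fads2* and *Elovl5*, was the highest here. *Fads1* averaged 10.84 ± 0.09 on alcohol and 11.46 ± 0.10 on control (SD, n = 4 each), which differ by -0.63 ± 0.08 (SE, limma adjusted p = 0.00230). That adjusted p was the lowest of the 10 genes, although the change was not the largest.

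For *Elovl2* the arrays gave 12.17, 12.11, 12.39 and 11.96 on alcohol and 12.43, 12.33, 12.41 and 12.39 on control. Alcohol mouse WA-833 lay within the range of the control mice and the other 3 alcohol mice below it. The difference of -0.23 ± 0.09 (SE) had a 95% interval of -0.44 to -0.02 and an adjusted p of 0.121 in limma, with an exact permutation p of 0.0571. Without mouse WA-833 it was -0.31 with an adjusted p of 0.0303, and over all 17 alternative settings the adjusted p was 0.0303 to 0.265.

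Relative to the control mean of each gene, the 4 genes of the polyunsaturated steps averaged -0.51, -0.70, -0.44 and -0.79 in the alcohol mice, against -0.07 to 0.09 in the control mice. Every alcohol mouse was thus lower in this group of genes as a whole. The change of *Elovl5* exceeded that of *Elovl2* in each alcohol mouse, so that *Elovl2* minus *Elovl5* was higher by 0.59 on alcohol (exact permutation p = 0.0286, 0.0571 after adjustment over the 6 pairs of genes compared). *Elovl5* and *Fads2* differed in their change by -0.06 (exact permutation p = 0.314, adjusted 0.377) and *Fads2* and *Fads1* by -0.13 (exact permutation p = 0.457, also after adjustment). With 4 mice a group and 6 pairs none of the pairs passed 0.05 after adjustment.

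*Fads3* lies beside *Fads2* and *Fads1* and encodes a relative reported to act on the sphingoid bases of ceramides, so it was placed in none of the steps. It fell 1.51-fold on alcohol, with 5.97, 5.97, 5.69 and 5.95 on alcohol and 6.37, 6.50, 6.31 and 6.76 on control. Here mouse WA-833 was the lowest alcohol mouse and the other 3 lay close together. The difference was -0.59 ± 0.11 (SE, limma adjusted p = 0.00997), at a signal just above the filter level. In the RefSeq gene order *Fads3*, *Fads2* and *Fads1* follow each other on chromosome 19, and all 3 fell. *Fen1*, which comes next, was not among the probe-sets tested, and *Tmem258* after it differed by -0.03 (limma adjusted p = 0.950).

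The monounsaturated step had genes that moved in opposite directions. *Scd1*, the main stearoyl-CoA desaturase of adult mouse liver, fell 1.30-fold on alcohol, and *Scd2*, the form known best from brain and from newborn tissues, rose 1.67-fold. Their shift relative to each other was 1.12 (log2).

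*Scd1* read 12.48, 12.57, 12.81 and 12.71 on alcohol and 13.00, 13.08, 12.99 and 13.04 on control. All 4 alcohol mice were below all 4 control mice, which differed little among themselves. With means of 12.64 ± 0.15 on alcohol and 13.03 ± 0.04 on control (SD, n = 4 each), the difference was -0.38 ± 0.08 (SE, limma adjusted p = 0.0162). The adjusted p was 0.0610 with no filter and 0.0529 without control mouse WC-824, in a range of 0.00706 to 0.0610 over 17 settings. The *Scd1* signal lay 0.94 to 1.21 under the highest value of the array on alcohol and 0.56 to 0.66 under it on control, and the part of a ceiling of the signal was not tested.

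*Scd2* read 7.04, 7.13, 7.04 and 7.44 on alcohol and 6.41, 6.28, 6.49 and 6.51 on control. Mouse WA-836 was the highest, and the groups were separate by 0.53. Its mean was 7.16 ± 0.19 on alcohol and 6.42 ± 0.11 on control (SD, n = 4 each), a difference of 0.74 ± 0.10 (SE, limma adjusted p = 0.00348). *Scd2* minus *Scd1* was above every control mouse in each alcohol mouse (exact permutation p = 0.0286, adjusted 0.0571). This had to follow once *Scd2* lay wholly above and *Scd1* wholly below the control mice, so it adds nothing to the single genes. The Scd genes are close relatives, and the probes that they may share were not examined.

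Among the endothelial markers 2 of 7 rose on alcohol and 0 fell. These were *Lyve1*, a hyaluronan receptor, with a difference of 1.23 (limma adjusted p = 0.00812), and *Clec4g*, a lectin of the liver sinusoid, with 0.47 (limma adjusted p = 0.00857). The mean of the list was 8.28 to 8.69 on alcohol and 8.11 to 8.20 on control, and its part in the rise of *Scd2* was not tested. Of the stellate cell markers tested, 1 of 6 rose (*Lrat*) and 1 fell (*Reln*), and of the Kupffer cell markers 0 of 8 were called. Beside these marker counts, 10.2% of all probe-sets tested were called higher and 5.98% lower.

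In gene order on chromosome 19, *Scd3*, *Scd2*, *Scd4* and *Scd1* stand next to each other. *Scd3* and *Scd4* did not reach the filter level on any array, with 2.27 to 2.45 for *Scd3* on alcohol and 2.24 to 2.43 on control. The genes of this cluster that were measured above the filter level thus moved apart. The mean of *Scd1* and *Scd2* relative to control was 0.04, 0.12, 0.20 and 0.35 in the alcohol mice and -0.05 to 0.05 in the control mice, a mean of a fall and a rise.

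The saturated steps held the gene with the largest change of the family and 2 that did not pass the test. *Elovl3*, an elongase of saturated and monounsaturated chains known from brown fat, skin and liver, fell 5.95-fold on alcohol. It was counted in the saturated steps only, so the means of the steps depend on that choice. *Elovl6*, which lengthens palmitate to stearate, and *Elovl1*, which makes the very long saturated chains of sphingolipids, had intervals that included 0.

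*Elovl3* read 9.54, 7.82, 9.53 and 6.30 on alcohol and 11.04, 10.80, 11.01 and 10.64 on control. The highest alcohol mouse was 1.10 under the lowest control mouse, and the alcohol mice differed widely, with WA-836 and WA-817 far below WA-811 and WA-833. The SD was 1.56 on alcohol and 0.19 on control (n = 4 each), a ratio of 8.36. The means of 8.30 on alcohol and 10.87 on control gave a difference of -2.57 ± 0.63 (SE), with a 95% interval of -4.00 to -1.15 and an adjusted p of 0.0249 in limma. Ranked by the size of the fall among all 10430 probe-sets, *Elovl3* was in place 14.

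The call of *Elovl3* depended on single mice and on the setting. Its difference was -2.99 to -1.91 when a mouse was left out, with the smallest without mouse WA-836. The adjusted p in limma was above 0.05 without alcohol mouse WA-817 (0.0656) and without control mouse WC-820 (0.0562), WC-824 (0.0578), WC-834 (0.0658) or WC-840 (0.0558), as well as with no filter (0.0868) and no variance moderation (0.0884), and it was 0.0164 to 0.0884 over 17 settings.

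Of the 6 adipocyte markers with a probe-set, 5 (*Adipoq*, *Lep*, *Plin1*, *Retn* and *Cidea*) did not pass the filter on low values, and *Pck1*, which hepatocytes also express, was not called, at 12.45 to 12.99 on alcohol and 12.53 to 12.80 on control. Their mean was 4.89 to 5.15 on alcohol and 4.83 to 5.05 on control, and their part in the fall of *Elovl3* was not tested. *Alas2*, the erythroid enzyme of heme synthesis, also fell most in mice WA-817 and WA-836, with 8.26, 7.09, 8.34 and 6.86 on alcohol and 9.69, 9.75, 9.59 and 9.82 on control. Its difference was -2.07 ± 0.32 (SE, limma adjusted p = 0.00467). The other erythroid marker with a probe-set, *Slc4a1*, was under the filter level, the mean of these 2 markers was 5.65 to 6.32 on alcohol and 7.12 to 7.27 on control, and their part in the fall of *Elovl3* was not tested either. The genes around *Elovl3* on chromosome 19 were not called, with 0.28 for *Pprc1*, 0.11 for *Nolc1* and -0.04 for *Gbf1* (limma adjusted p = 0.131, 0.652 and 0.749).

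*Elovl6* read 9.92, 10.30, 10.63 and 9.90 on alcohol and 9.69, 10.28 and 10.07 in control mice WC-820, WC-824 and WC-834, with WC-840 between the lowest and the highest of these. The groups overlapped, and mouse WA-833 was above all others. Its difference of 0.18 ± 0.18 (SE) had a 95% interval of -0.23 to 0.59 (limma adjusted p = 0.538), so that changes of that size in either direction were not distinguished from none.

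*Elovl1* read 8.93, 9.02, 8.91 and 9.36 on alcohol and 8.88, 8.93, 8.90 and 8.92 on control. Mouse WA-836 was the highest, and mouse WA-833 lay among the control mice, which differed little. The difference was 0.15 ± 0.10 (SE), with a 95% interval of -0.08 to 0.38 (limma adjusted p = 0.342).

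The mean of the 3 genes of the saturated steps relative to control was -0.46, -0.88, -0.24 and -1.41 in the alcohol mice and -0.08 to 0.07 in the control mice. This mean was carried by *Elovl3*, as the median difference of the 3 genes was 0.15. *Elovl3* minus *Elovl1* differed between the diets by -2.72 (exact permutation p = 0.0286, adjusted 0.0571). The diets were 1.10 apart in *Elovl3* and overlapped only slightly in *Elovl1*, so this p adds nothing to the single genes. *Elovl6* minus *Scd1*, the enzymes that share stearate, was higher by 0.56 (exact permutation p = 0.0571, adjusted 0.0857).

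The alcohol mice differed most in *Elovl3*. Over the 6 genes that fell, the mean difference from control was -0.70 in mouse WA-811, -1.09 in WA-817, -0.68 in WA-833 and -1.36 in WA-836. Without *Elovl3* it was -0.58 in WA-811, -0.70 in WA-817, -0.55 in WA-833 and -0.72 in WA-836, so that *Elovl3* carried most of the spread between mice. Over the 10 genes mouse WA-836 was the lowest alcohol mouse in 5 and the highest in 3, and mouse WA-833 was the highest in 5 and the lowest in 3, so that no order of mice held across the family. Mouse WA-811 was the lowest in *Scd1*, WA-817 in *Fads1* and WA-833 in *Fads3*. No test was made between mice, which have 1 array each.

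**Figure D3:**
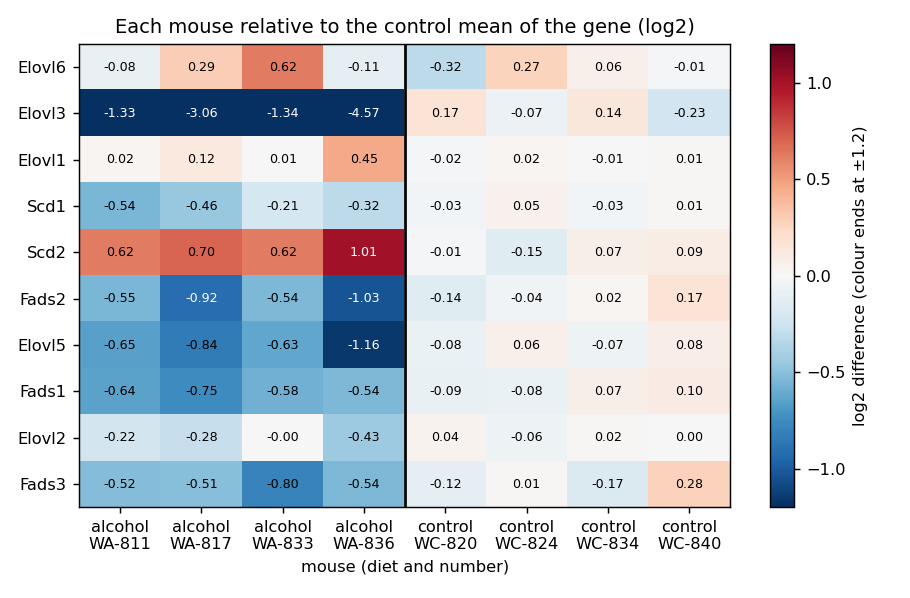
Log2 value of each gene (rows) in each mouse (columns, alcohol left and control right) minus the control mean of that gene, with colors that end at 1.2 in either direction. Elovl3 is -4.57 in alcohol mouse WA-836 and -1.33 in mouse WA-811, while Fads1 is between -0.75 and -0.54 in all 4 alcohol mice.

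Several genes had profiles over the 8 arrays close to those of the called enzymes, by the root mean square distance of values relative to the control mean among 7757 other genes. Closest to *Fads2* was *Elovl5* (0.0945), followed by *C8b* and *Aadat*, and closest to *Elovl5* were *Ociad2* (0.0795) and then *Fads2*. *Sucla2* was closest to *Fads1* (0.0380), *Mgmt* to *Fads3* (0.0762), *Cebpa* to *Scd1* (0.0677) and *P4ha2* to *Scd2* (0.0773). The genes closest to *Elovl3* were *C6* and *Alas2*, at 0.569 and 0.650. The distance is not scaled to the size of a change, so it can be large for a gene that changes as much as *Elovl3*. The distances share the same 8 arrays and describe them.

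Most genes that work with the desaturases and elongases did not pass the test, as was so for most probe-sets on the array that were tested. In 7 lists of 61 symbols, 43 had a probe-set of their own and 34 were tested. Of these 2 rose, 1 fell and 31 were not called, where over all probe-sets tested 10.2% were higher and 5.98% lower. Among the 31 the alcohol values still lay wholly above control in *Cyb5a*, *Hacd2* and *Hacd3*. They lay wholly below it in *Nr1h3*, *Acsl4*, *Acsl5* and *Scp2*. Over all probe-sets tested, called or not, 15.5% lay wholly above and 8.14% wholly below.

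Among the genes that supply electrons to the desaturases 1 of 5 tested rose. It was *Cyb5r1*, a cytochrome b5 reductase, with 7.36, 7.44, 7.23 and 7.48 on alcohol and 7.12, 6.77, 6.84 and 6.91 on control, a difference of 0.47 ± 0.10 (SE, limma adjusted p = 0.0124). The reductase genes *Cyb5r3* and *Cyb5r4* were not called, with -0.11 and 0.23 (limma adjusted p = 0.440 and 0.268). *Cyb5a*, the cytochrome b5 that passes the electrons on, differed by 0.22 (limma adjusted p = 0.112). The 3 tested enzymes that complete the elongation cycle, *Hsd17b12*, *Hacd2* and *Hacd3*, were not called, with -0.10, 0.21 and 0.16.

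Of the genes that supply substrate 1 of 5 rose. *Acaca*, which makes malonyl-CoA for synthesis and elongation, read 9.47, 9.76, 10.03 and 9.38 on alcohol and 8.79, 9.15, 8.92 and 9.05 on control. All alcohol mice lay above the control mice, by 0.68 ± 0.15 on average (SE, 1.61-fold, limma adjusted p = 0.0142). *Fasn*, the fatty acid synthase, differed by 0.27 (limma adjusted p = 0.281) and *Acly*, the source of cytosolic acetyl-CoA, by -0.08 (limma adjusted p = 0.744), and in both genes the groups overlapped.

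Of 11 regulators 1 fell, *Ppara*, the nuclear receptor for fatty acids, with 10.16, 9.98, 9.91 and 9.67 on alcohol and 10.43, 10.60, 10.42 and 10.66 on control. Its mean was 9.93 ± 0.20 on alcohol and 10.53 ± 0.12 on control (SD, n = 4 each), a 1.51-fold fall with a difference of -0.60 ± 0.11 (SE, limma adjusted p = 0.00857). *Srebf1*, which encodes the SREBP form that acts on lipogenic genes, read 9.94, 9.71, 10.33 and 9.37 on alcohol and 10.12, 10.37, 10.18 and 10.42 on control. The difference of -0.43 ± 0.18 (SE) did not pass the test (limma adjusted p = 0.136), and mouse WA-833 lay among the control mice. *Nr1h3*, the gene of LXR alpha, and *Mlxipl*, that of ChREBP, differed by -0.17 and 0.01 (limma adjusted p = 0.114 and 0.941).

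Neither the 4 tested genes of acyl-CoA entry nor the 4 of the peroxisomal shortening that ends the synthesis of docosahexaenoic acid were called. Of these *Scp2* differed by -0.46 (limma adjusted p = 0.0850) and *Abcd2*, a peroxisomal transporter of acyl-CoA, by 0.53 (limma adjusted p = 0.0656). Of the other desaturases and elongases, *Degs1*, the ceramide desaturase, and *Fads6* were tested and not called, with 0.04 and 0.08. *Scd3*, *Scd4*, *Elovl4*, *Elovl7* and *Degs2* were under the filter level.

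**Figure D4:**
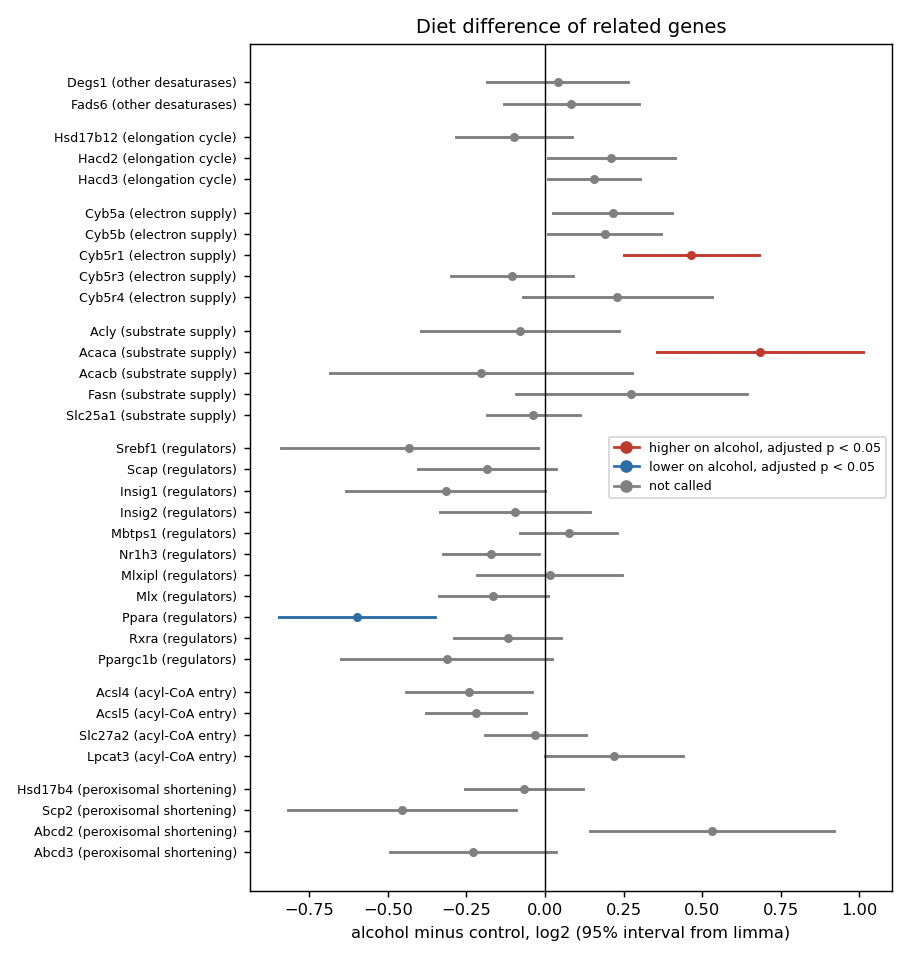
Difference of the 34 tested genes of the 7 related lists, alcohol minus control on the log2 scale (horizontal axis), with 95% intervals from limma, grouped by list. Cyb5r1 and Acaca are called higher (red, 0.47 and 0.68) and Ppara lower (blue, -0.60), and the other 31 genes (grey) are not called.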

How the data were processed

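Hepatic RNA of 8 wild type mice, 4 per diet, was measured with 1 Affymetrix Mouse Exon 1.0 ST array per mouse. The deposited log2 values are RMA values that the authors computed (background correction, normalization and summary over probes), for which the labels name the Affymetrix Expression Console with no version. Probe-sets were named through the array annotation, in which 14996 of 23332 carried 1 symbol, 1019 several and 7317 none, and only those with 1 symbol stood for a gene. The level of the study's filter was not given in the sources used here, so probe-sets were ranked on their fourth-highest value and the top 10430 retained, the number the methods give. Both diets were compared in R 4.3.3 with limma 3.58.1 (6 residual degrees of freedom, Benjamini-Hochberg adjustment over 10430), tested on simulated data, and with exact permutation tests over 70 arrangements. The number of arrays limits the precision, and nothing links a control mouse to its pair-fed alcohol mouse. The final alcohol level in the methods is slightly above that of the labels.

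The members, related lists and markers were chosen with earlier results of these data known. The text names all 10 members, from each related list up to 3 genes called at an adjusted p under 0.05, and for each called member the 3 closest profiles, of which some are printed. Other list genes were named after their values were seen. The alternatives changed the filter (none, or on the mean), the variance model (with a trend, robust, or not moderated), the scaling (quantiles or equal medians), the weights of arrays, the reading of genes with several probe-sets (by the mean), the thresholds (those of the study) and the mice (each left out in turn). RefSeq gene order and promoter windows are from GRCm38.p6. The PCR, protein and histology data of the study were not used here.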

Additional observations from a re-analysis of the deposited data

Results flagged for a closer look

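*Fads3* in alcohol mouse WA-833, at 5.69 (log2), stood apart from the other 3 alcohol mice, which read 5.97, 5.97 and 5.95. Its gap to the nearest of them was most of the range of the group, past Dixon's 95% critical value for 4 samples. With 20 groups of 4 examined, chance alone gives about 1 such case. Without this mouse the difference of *Fads3* remained below 0, in a range of -0.65 to -0.50 over the mice left out in turn.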

How the results depend on the processing

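All 10 genes kept their direction under each of 17 alternatives at the same threshold, and *Scd2*, *Fads1*, *Fads2*, *Fads3* and *Elovl5* kept their call in all 17. The study's thresholds, which are not among the 17, ended the calls of *Scd1*, *Fads2*, *Fads3* and *Elovl3*. The number of genes called lower was 6, and 2 at the study's thresholds, 4 with no filter, 5 with no moderation and 4 to 7 when a mouse was left out, with the lowest without control mouse WC-824 and the highest without alcohol mouse WA-833. The number called higher was 1 in each, with the range 1 to 1 over mice left out. Over all probe-sets 1059 were higher and 624 lower. With no filter (23332 tested) these were 488 and 285, and with no moderation 809 and 382. Leaving out a mouse gave 595 to 1086 higher and 362 to 557 lower, with 695 higher without alcohol mouse WA-817, and 595, 614 and 640 higher without control mice WC-824, WC-834 and WC-840, where 372 were lower without WC-824 and 362 without WC-840. The cause was not tested, beyond the fewer samples or more probe-sets tested. The pair differences with a mouse left out were 1.05 to 1.22 for *Scd2* minus *Scd1*, 0.54 to 0.64 for *Elovl2* minus *Elovl5*, -3.18 to -1.96 for *Elovl3* minus *Elovl1*, 0.47 to 0.68 for *Elovl6* minus *Scd1*, -0.21 to -0.01 for *Fads2* minus *Fads1* and -0.11 to -0.02 for *Elovl5* minus *Fads2*. No paired analysis was possible because the labels give the mice of both diets no shared numbers.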

Other observations

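The alcohol livers varied more than the control livers, in this family and also over all probe-sets tested. The SD over 4 mice was larger on alcohol in 8 of the 10 genes, and larger on control in *Fads1* and *Fads3*. It was larger on alcohol in 63.5% of all probe-sets tested. The median SD of the 10 genes was 0.197 on alcohol and 0.103 on control, and over all probe-sets tested it was 0.150 on alcohol and 0.119 on control. No test of this difference was made.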
